A study of Mus musculus with 36 samples.

Results

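The step from the T9 to the T13 time label under lipopolysaccharide (LPS) was followed in macrophages grown from the bone marrow of wild-type mice. It rests on 6 of the 36 libraries of the series: the 3 libraries labelled wild type, T9 and LPS and the 3 labelled wild type, T13 and LPS, 1 at each time from each of 3 mice. All mice of the study carried a tamoxifen-inducible Cre recombinase (CreERT2) at the Rosa26 locus, and the wild-type mice had an unmodified Cop1 gene, which encodes a ubiquitin ligase. The other genotype had a floxed Cop1 gene and is used below only to test whether the step differed between genotypes. Both groups of the step had received LPS at 100 ng/ml from day 7 of differentiation, and polyadenylated RNA was sequenced. The unit of the time labels, the ages of the mice and any tamoxifen treatment of the cells are not stated in the labels. No untreated library carried a late time label, so the time under LPS and the time in culture cannot be told apart.

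LPS, a part of the outer membrane of Gram-negative bacteria, binds the receptor TLR4 and activates the transcription factors NF-kB, AP-1 and IRF3. The first wave of transcripts encodes cytokines, chemokines and inhibitors of the same pathways, and secreted interferon beta then drives a second wave of interferon-stimulated genes. In the late phase many of these transcripts fade, while metabolic and myeloid genes are rewired and genes that LPS had silenced can return.

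The T9 and T13 libraries held 32561836 to 40298009 counted reads and 18446 to 18960 detected genes. Values are CPM, counts brought to a common library size, with edgeR's TMM scaling over the 18 wild-type libraries, given in the order of mouse 1, 2 and 3, and fold changes are log2 of T13 over T9. The TMM factor lay between 0.834 and 0.895 at T9 and between 0.961 and 1.01 at T13, against 1.53 to 1.64 in the untreated T0 libraries. On the second principal component of the wild-type libraries, which held 24.0% of the variance, T9 lay between 12.4 and 26.6 and T13 between 95.0 and 103. Summed macrophage markers were at 19801 to 21237 CPM at T9 and at 19413 to 20962 CPM at T13, so the groups overlapped. With library totals the same sums were 17701 to 18541 and 19693 to 20318, without overlap. Endothelial markers summed to 107 to 147 CPM at T9 and 64.5 to 68.9 CPM at T13, without overlap. Most of that sum was Kdr, with 10017 counts over the T9 libraries and 4124 over those of T13. Pecam1 rose from 678 to 1679 counts, and Cdh5 and Emcn were not called, so the sum does not describe the list. Stromal cell markers summed to 491 to 1098 CPM at T9 and to 232 to 590 CPM at T13, with 9 of 10 called lower (4 without the mouse as a block), and dendritic cell markers to 109 to 129 and 36.1 to 43.9 CPM, with 4 of 5 tested called lower. Neutrophil markers were under 91 CPM in each of the 6 libraries, and T, NK and B cell markers under 5 CPM. Both libraries of mouse 2 held reads of Xist, 1921 to 2729 counts, together with reads of the Y-linked Ddx3y, 623 to 754 counts, and a mix of animals was not tested. In bulk RNA, fewer cells of a type and less RNA per cell cannot be told apart.

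The step from T9 to T13 was a broad one. Most genes at least 2-fold above T0 at T6 fell, and most of those at least 2-fold below it rose, often without reaching T0. A further set rose that had not been called at least 2-fold above T0 at T2.5, T4 or T6. Of 15289 genes tested, 4505 (29.5%) were higher at T13 and 4609 (30.1%) lower at an adjusted p below 0.05 in edgeR's quasi-likelihood test with the mouse as a block, together 59.6%. At least a 2-fold change was seen in 1667 genes that rose (10.9%) and 2033 that fell (13.3%). The 3 libraries of T9 and the 3 of T13 did not overlap in 10083 genes (65.9%). The largest rises and falls and the class members named below had to meet this condition. For them a lack of overlap follows from the rule and adds no support. Without mouse 2, 4450 genes were called higher and 4491 lower. Scaled by library totals the split was 5874 higher and 3446 lower, since the median log2 fold change of all genes then moved from -0.0012 to 0.18.

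Genes were sorted by what they had done before T9, from the contrasts of T2.5, T4 and T6 against T0, which use no T9 or T13 library. Called and at least 2-fold above T0 were 15.9% of tested genes at T2.5, 20% at T4 and 21% at T6. Of the 3212 such genes at T6, 61.0% fell from T9 to T13 and 12.6% rose. Of the 3477 genes (22.7%) at least 2-fold below T0 at T6, 52.3% rose and 9.98% fell. Among the 8600 genes in neither set the shares were 26.5% and 26.8%. Genes induced at T6 therefore made up most of the falls of at least 2-fold, 1050 of 2033, and genes lowered at T6 most of the rises of at least 2-fold, 999 of 1667.

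Of the called genes, 5 classes were set apart and named by their course; a further 1852 genes called higher and 2107 called lower were in none of them. The decline of an induced gene, a fall after a rise of at least 2-fold at T2.5, T4 or T6, was the class of 2157 genes, and 1446 of them still stood above T0 at T13 while 207 had dropped below it. Rebound, a rise after a loss of at least 2-fold at T6, held 1818 genes, of which 1125 were still below T0 at T13 and 162 above it. Still climbing, a rise from T9 to T13 in genes at least 2-fold above T0 at T6, held 405 genes. T9 against T6 was not part of this rule, so the class can hold genes that were lower at T9 than at T6, such as Ccl2. Newly rising held 430 genes, which rose and stood at least 2-fold above T0 at T13. None of them was called at least 2-fold above T0 at T2.5, T4 or T6. T9 against T0 was not part of this rule, and the class median there was 0.41 on the log2 scale. Further loss, a fall of genes already down at T6, held 345 genes. Of all tested genes 33.2% were called above T0 at T13 (17.9% by at least 2-fold) and 37.4% below it. With library totals, which change both the level of T0 and the scaling of the step, declines numbered 1179, rebounds 4199, newly rising genes 267 and further losses 853.

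**Figure D1:**
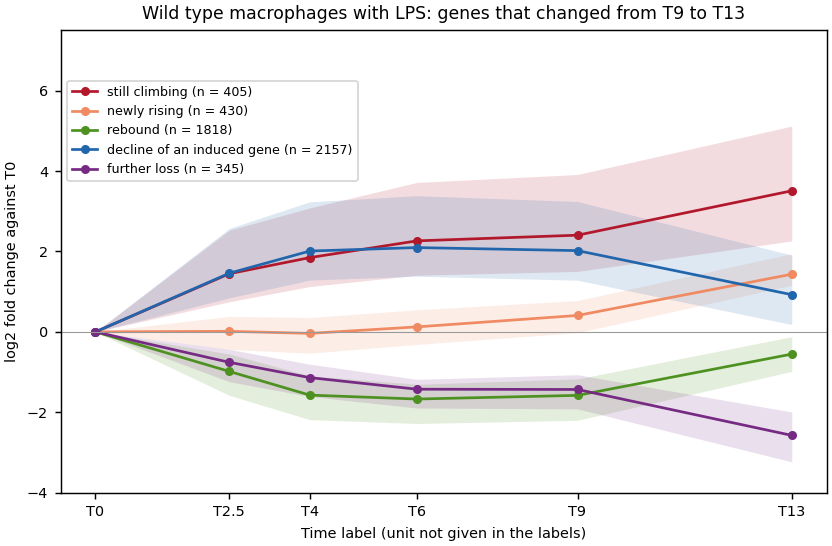
Median log2 fold change against T0 (y axis) at each time label (x axis) for the 5 classes of genes that changed from T9 to T13 in wild-type macrophages; shaded bands are the middle 50% of the genes. The classes were defined from the T2.5, T4 and T6 contrasts and the step (and, for newly rising genes, T13 against T0), so the shapes follow from the rule; the medians moved from 2.02 to 0.92 for declines and from -1.58 to -0.55 for rebounds between T9 and T13.

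**Figure D2:**
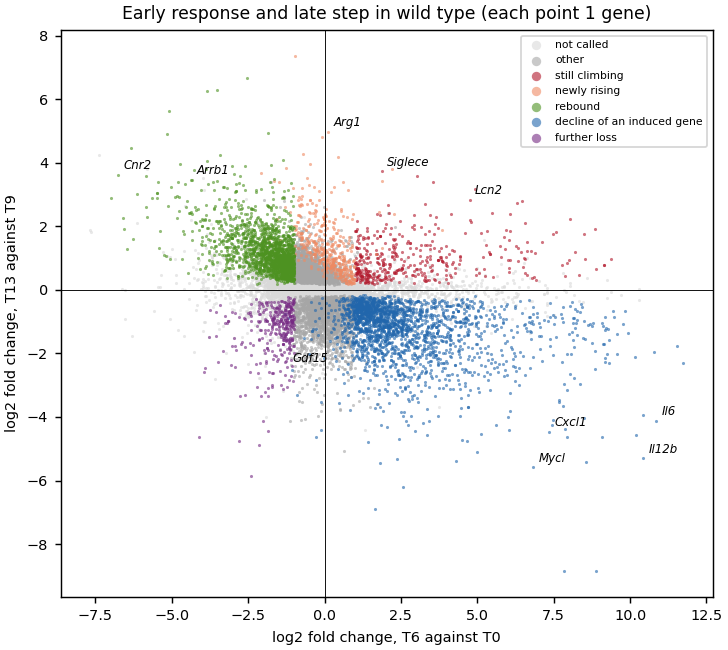
Log2 fold change of T13 against T9 (y axis) over that of T6 against T0 (x axis) for the 15289 tested genes in wild-type macrophages, coloured by class. Il6 and Il12b lie to the right and below 0, and Cnr2 and Arrb1 to the left and above it. Of the genes at least 2-fold above T0 at T6, 61.0% fell and 12.6%, Lcn2 among them, rose. Of those at least 2-fold below T0, 52.3% rose and 9.98% fell. Each point is 1 gene and genes are not independent replicates.

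Most cytokine and chemokine genes fell. Of 29 cytokine genes tested, 20 fell and 3 rose, with a median log2 fold change of -1.25, against -0.0012 over all genes. Of 24 chemokine genes, 16 fell and 3 rose, with a median of -1.08. The 3 cytokines that rose were Il1f6, Ebi3 and Csf3, at 1.92, 0.92 and 0.66 on the log2 scale, and the 3 chemokines were Ccl2, Ccl12 and Ccl7. The promoters of Cxcl1, Cxcl2 and Il6 are shown because they carry the letters GGGANTTTC, an NF-kB motif, searched on both strands, and none of the other motifs searched overlaps a match. Each stretch is the 250 bases before the RefSeq start in GRCm38.p6, on the strand of the gene, with the match in capitals.
Cxcl1: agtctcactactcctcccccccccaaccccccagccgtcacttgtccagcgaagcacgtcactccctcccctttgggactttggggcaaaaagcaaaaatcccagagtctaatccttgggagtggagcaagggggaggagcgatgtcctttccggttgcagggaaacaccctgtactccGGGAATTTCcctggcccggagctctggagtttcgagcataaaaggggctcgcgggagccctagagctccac
Cxcl2: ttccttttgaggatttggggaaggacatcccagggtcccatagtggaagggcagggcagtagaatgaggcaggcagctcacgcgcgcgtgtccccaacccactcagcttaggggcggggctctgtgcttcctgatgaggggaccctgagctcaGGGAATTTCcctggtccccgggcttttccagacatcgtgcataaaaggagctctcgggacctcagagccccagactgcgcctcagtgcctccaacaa
Il6: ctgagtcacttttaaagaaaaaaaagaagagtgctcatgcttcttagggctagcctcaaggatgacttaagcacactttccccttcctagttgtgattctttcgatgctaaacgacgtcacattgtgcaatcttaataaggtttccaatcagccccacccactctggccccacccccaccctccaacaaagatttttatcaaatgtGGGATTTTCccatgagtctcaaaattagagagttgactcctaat
All 3 genes are on the plus strand, at chr5:90890995-90891244, chr5:90903649-90903898 and chr5:30012864-30013113. The motif was present in 25% of the 16 chemokine genes and 14.3% of the 21 cytokine genes that had a window of 300 bases around the start, against 1.20% of 11237 tested genes with such a window. A match describes letters in the window and was not tested as a binding site. Among all declining induced genes 2.11% held it, and among still climbing genes, which rose, 3.52%. The shares were 2.21% for further losses, 1.59% for newly rising genes and 0.554% for rebounds.

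Il12b, which encodes the p40 subunit of interleukins 12 and 23 (chromosome 11, 44400063 to 44414677 in GRCm38.p6), stood at 512, 429.6 and 512 CPM at T9 and at 13.6, 9.93 and 13.7 CPM at T13. The fall was 39.1-fold (log2 fold change -5.29, SE 0.22, adjusted p = 1.15e-11), with every T13 library far below every T9 library, yet T13 was still above the T0 mean of 0.592 ± 0.397 CPM. Il6, the gene of an acute-phase cytokine (chromosome 5, 30013114 to 30019975), went from 217, 319 and 279 CPM to 14.8, 17.00 and 14.9 CPM (log2 fold change -4.12, SE 0.14, adjusted p = 2.18e-12). It had peaked at a mean of 823 CPM at T6, above its T9 libraries. Lif, a cytokine of the interleukin 6 family, went from 16.5, 41.8 and 31.3 CPM to 2.02, 3.81 and 3.90 CPM (log2 fold change -3.17, SE 0.11, adjusted p = 1.95e-12). In Lif mouse 1 was the lowest at both times, and the stromal marker sum was also lowest in mouse 1; its part in the result was not tested. Il15, which supports NK and memory T cells, fell by 1.79 on the log2 scale and Il12a, the p35 subunit of interleukin 12, by 2.14.

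Tnf, Il1b, Il10 and Ifnb1 each fell by less than 1 on the log2 scale. Tnf, the gene of tumour necrosis factor (chromosome 17, 35199367 to 35202007), went from 699.8, 584 and 590.1 CPM to 393, 331 and 311 CPM (log2 fold change -0.86, SE 0.10, adjusted p = 2.61e-06). Tnf had declined earlier, from a mean of 3003 CPM at T4 to 2195 at T6. Il1b, the gene of interleukin 1 beta, went from 1472, 1939.5 and 2357 CPM to 1063, 1044 and 1008 CPM (log2 fold change -0.86, SE 0.23, adjusted p = 0.00376). The mice were further apart at T9 than at T13, and without mouse 3 the fall was 0.65 on the log2 scale with an adjusted p of 0.134. Il10, which encodes an anti-inflammatory cytokine, fell by 0.84 (adjusted p = 3.92e-05) to 79.1, 68.2 and 59.7 CPM. Ifnb1, the gene of interferon beta, was already low at T9, at 6.98, 4.57 and 3.75 CPM after a mean of 93.5 at T2.5, and reached 2.74, 2.61 and 2.98 CPM (log2 fold change -0.85, SE 0.20, adjusted p = 0.00138).

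The neutrophil attractants Cxcl1, Cxcl2 and Cxcl3 and the T cell attractant Ccl22 were among the strongest falls, whereas the monocyte attractants of the Ccl2 group rose. Cxcl1 (chromosome 5, 90891245 to 90893121) went from 81.1, 86.3 and 95.7 CPM to 3.98, 3.75 and 4.12 CPM, 22.1-fold lower (log2 fold change -4.47, SE 0.19, adjusted p = 1.88e-11), and its 3 mice were close to each other at both times. Cxcl2, its neighbour on the chromosome (chromosome 5, 90903899 to 90905938), went from 294, 273 and 281 CPM to 27.3, 24.05 and 25.4 CPM (log2 fold change -3.47, SE 0.14, adjusted p = 1.03e-11). Ccl22 (chromosome 8, 94745684 to 94751388) went from 30.6, 33.97 and 30.8 CPM to 2.53, 2.61 and 2.49 CPM (log2 fold change -3.64, SE 0.19, adjusted p = 1.33e-10), without overlap. Cx3cl1, a membrane-bound chemokine, fell by 3.27, and Cxcl3 by 3.52. Cxcl10, an interferon-induced T cell attractant, fell by 1.35 but remained high, at 2376, 2319 and 2047 CPM.

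Ccl2, which attracts monocytes (chromosome 11, 82035577 to 82037452), stood at 312, 369.7 and 293 CPM at T9 and at 777, 759 and 676 CPM at T13 (log2 fold change 1.19, SE 0.13, adjusted p = 5.47e-07). The T9 libraries were lower than the T6 mean of 635 CPM and all T13 libraries higher. Ccl12 and Ccl7, from the same chemokine family, rose by 0.77 and 0.65. Ccl5 had a log2 fold change of 0.36 and Cxcl11 of 0.029, and neither was called.

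**Figure D3:**
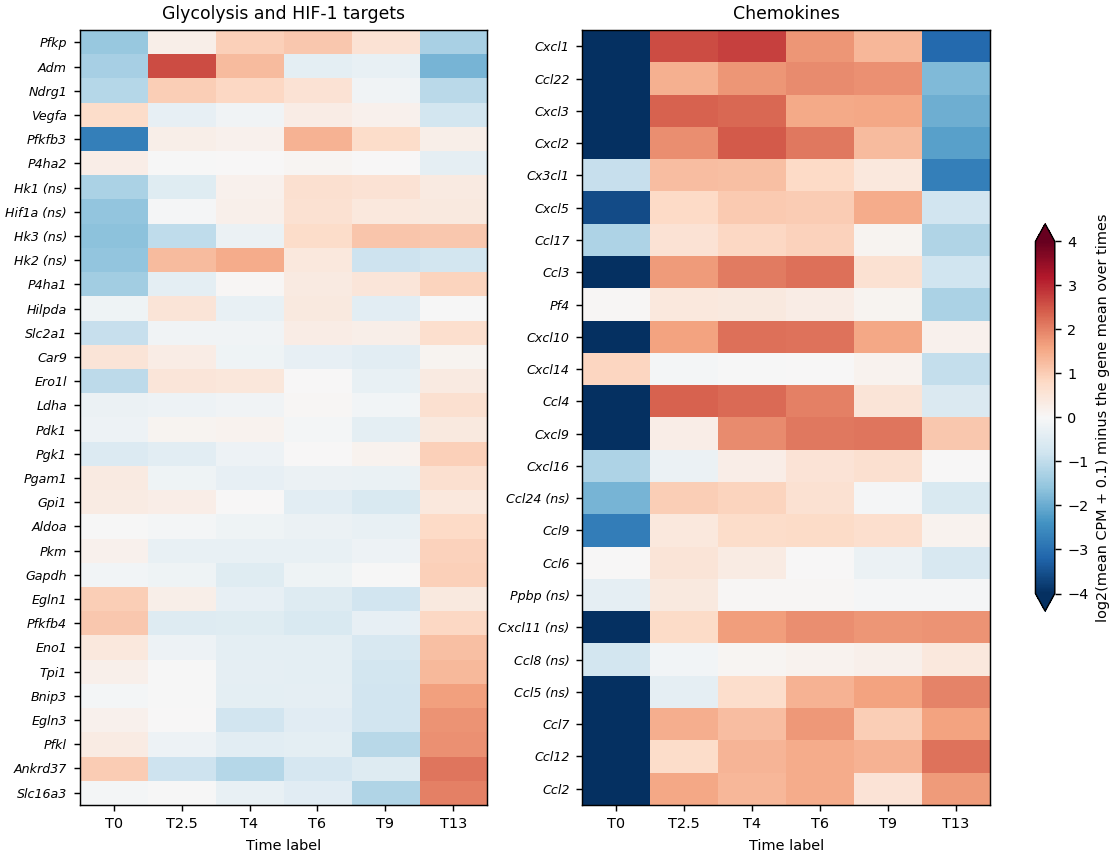
Mean CPM of wild-type macrophages at each time label (x axis) for the 32 glycolysis and HIF-1 target genes and the 24 chemokines (y axis), as log2(mean CPM + 0.1) minus the gene's own mean over the 6 times; ns marks genes not called from T9 to T13. Colours stop at -4 and 4. Most glycolysis genes are highest at T13, and Cxcl1, Ccl22 and Cxcl2 lose their colour between T9 and T13 while Ccl2, Ccl7 and Ccl12 gain it.

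Most genes that build and restrain NF-kB signalling fell. All 5 NF-kB subunit genes were lower at T13, from -1.56 for Nfkb1 to -0.41 for Relb. Among 27 inhibitors that feed back on NF-kB or on cytokine receptors, 21 fell and 1 rose (2 without mouse 3, 4 with library totals), with a median of -0.69. Tnfaip3, which encodes the ubiquitin-editing inhibitor A20, went from 1763, 1541 and 1663 CPM to 357, 293 and 299 CPM (log2 fold change -2.39, SE 0.090, adjusted p = 5.06e-12). Nfkb1, the gene of p105 and p50, went from 751, 809 and 756 CPM to 282, 252 and 252 CPM (log2 fold change -1.56, SE 0.081, adjusted p = 1.27e-10). Neither gene overlapped between the groups, and both were still above T0 at T13. Cish, a STAT5-induced inhibitor of cytokine receptors, fell by 2.32, and the inhibitor gene Nfkbib by 1.64. The exception was Irak3, whose product restrains TLR signalling and which rose by 0.46. Socs1 (0.11) and Zfp36 (0.13) were not called.

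Immediate early genes, which encode transcription factors of the first response, moved in both directions: 14 of 27 fell and 6 rose. Over all tested genes 30.1% fell and 29.5% rose. Nr4a3, an orphan nuclear receptor gene, went from 5.33, 5.80 and 5.81 CPM to 0.568, 0.707 and 0.967 CPM (log2 fold change -2.92, SE 0.18, adjusted p = 7.12e-10). Klf6 fell by 1.48 and Klf4 by 1.30. Jun, an AP-1 subunit and a substrate of the COP1 ligase (chromosome 4, 95049036 to 95052222), went from 42.9, 42.9 and 43.9 CPM to 118, 134 and 121 CPM (log2 fold change 1.52, SE 0.11, adjusted p = 4.51e-09). Its T9 libraries were below the T0 mean of 72.3 ± 9.30 CPM and its T13 libraries above it. Egr1, a growth factor-induced zinc finger gene, rose from 7.68, 8.35 and 11.4 CPM to 35.01, 25.9 and 27.1 CPM (log2 fold change 1.68, SE 0.16, adjusted p = 1.28e-07). Klf2 and Btg2 rose by 1.20 and 1.08. Cop1 itself was at 14.4, 12.8 and 13.98 CPM at T9 and 14.2, 13.5 and 15.2 CPM at T13 (log2 fold change 0.057, SE 0.084, adjusted p = 0.579), and the groups overlapped. Cebpb (-0.16, adjusted p = 0.367) and Cebpa (0.087, adjusted p = 0.605), the genes of 2 C/EBP factors, were not called either, and the sign for Cebpb was positive with library totals (0.025). Cebpa stayed far below its T0 mean of 453 ± 36.7 CPM, at 24.96, 25.9 and 28.04 CPM.

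The interferon-stimulated genes, which limit virus replication and shape antigen presentation, remained high, and more of them fell than rose. Of 47 tested, 27 fell and 12 rose, against 30.1% lower and 29.5% higher over all tested genes. The share that rose was thus not above that of all genes. The list had a median of -0.50 in the step against a median of 6.39 over T0 at T13. A promoter from each direction is shown, Ifih1 for the falls and Bst2 for the rises. Both hold the letters GAAANNGAA, the core of an interferon-stimulated response element, on either strand. In Bst2 a pair of matches overlap each other and a STAT motif, TTCCNGGAA. The stretches are the 250 bases before the RefSeq start in GRCm38.p6, on the minus strand of the chromosome, 5′ to 3′, with matches in capitals.
Ifih1: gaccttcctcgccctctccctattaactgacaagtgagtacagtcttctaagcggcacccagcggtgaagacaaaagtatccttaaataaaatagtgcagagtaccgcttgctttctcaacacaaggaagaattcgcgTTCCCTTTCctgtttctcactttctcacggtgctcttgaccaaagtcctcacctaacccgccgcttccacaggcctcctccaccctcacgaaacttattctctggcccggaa
Bst2: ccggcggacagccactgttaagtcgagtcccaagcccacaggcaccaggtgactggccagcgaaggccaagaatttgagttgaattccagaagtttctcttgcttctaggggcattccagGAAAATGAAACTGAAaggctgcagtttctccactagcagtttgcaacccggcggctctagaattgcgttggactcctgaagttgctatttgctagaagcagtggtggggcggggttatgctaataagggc
They lie at chr2:62646256-62646505 and chr8:71537473-71537722. The motif was in 64.7% of the 34 interferon-stimulated genes with a window and in 9.03% of tested genes, in 21.5% of still climbing genes and in 11.4% of declining induced genes.

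Mx1, the gene of a dynamin-like antiviral GTPase, went from 4788, 4733 and 4947 CPM to 1651, 1640.2 and 1558 CPM (log2 fold change -1.57, SE 0.17, adjusted p = 8.22e-07). Ifih1, which encodes the RNA sensor MDA5, went from 1651, 1396 and 1372 CPM to 618, 546 and 611 CPM (log2 fold change -1.32, SE 0.13, adjusted p = 2.75e-07), and Parp14, an ADP-ribosyltransferase gene, fell by 1.35. In all 3 genes every T13 library was below every T9 library. Among the genes that rose, Slfn4, a myeloid Schlafen gene, went from 465, 396 and 445 CPM to 1372, 1356 and 1684 CPM (log2 fold change 1.76, SE 0.17, adjusted p = 2.45e-07). Bst2, the gene of tetherin, which holds virus particles at the cell surface, rose by 1.27, and Isg20, an exonuclease gene, by 0.96. Of the factors that drive the programme, Irf7 rose by 0.90 and Stat2 by 0.70, while Irf1 fell by 0.50. Isg15 was at 0.058 and was not called.

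In the list of MHC class I presentation, which shows peptides to T cells, 10 of 18 genes rose and 2 fell, with a median of 0.36. H2-Q7, a non-classical class I gene, went from 94.7, 81.7 and 85.4 CPM to 244, 247 and 237 CPM (log2 fold change 1.47, SE 0.17, adjusted p = 1.79e-06); H2-Q6 rose by 1.43, and the near-identical H2-Q copies can share or lose reads, so these values are uncertain. H2-K1 and B2m, the classical heavy chain and the light chain, rose by 0.60 and 0.34, while Nlrc5, the transactivator of class I genes, fell by 0.82. In the class II and costimulation list 6 of 15 fell and 2 rose (4 without mouse 2, 5 with library totals), with a median of 0.15; the lists were not tested against each other. Cd40, a costimulatory receptor, went from 2107, 1981 and 1951 CPM to 387, 373 and 319.8 CPM (log2 fold change -2.48, SE 0.17, adjusted p = 3.04e-09), and Ciita, the class II transactivator, from 6.70, 6.08 and 6.73 CPM to 0.982, 0.892 and 1.19 CPM (log2 fold change -2.68, SE 0.27, adjusted p = 2.46e-07). The class II chains themselves, H2-Aa, H2-Ab1, H2-Eb1 and Cd74, had values of 0.15 to 0.44 and were not called. Of the 5 dendritic cell markers tested 4 also fell, Fscn1 by 1.90 and Ccr7 by 0.99. These markers had first risen in the same cultures, with a median over T0 of 2.31 at T6 and 2.40 at T9. They therefore need not reflect a content of dendritic cells, and their part in the result was not tested.

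Of 29 pattern recognition and inflammasome genes, 13 fell and 2 rose (1 without mouse 3, 4 without mouse 2), and 11 fell and 8 rose with library totals. Tlr2, a receptor for bacterial lipoproteins, went from 788, 805 and 758 CPM to 143, 129 and 152 CPM (log2 fold change -2.47, SE 0.085, adjusted p = 2.04e-12) and ended below its T0 mean of 180.1 ± 0.393 CPM. Nlrp3, the sensor of an inflammasome, fell by 2.16, whereas Irak4, a kinase of the TLR pathway, rose from 17.5, 15.1 and 17.6 CPM to 40.4, 35.98 and 37.2 CPM (log2 fold change 1.18, SE 0.080, adjusted p = 2.65e-09). Tlr4, the LPS receptor, was at -0.41 and not called. Among prostaglandin and leukotriene genes, 9 of 18 fell and 6 rose, against 30.1% and 29.5% of all tested genes. Ptgs2, the inducible cyclooxygenase (chromosome 1, 150100031 to 150108234), went from 1412, 1250.1 and 1294 CPM to 196, 148 and 171 CPM (log2 fold change -2.95, SE 0.14, adjusted p = 3.75e-11). Hpgd, which degrades prostaglandins, had not been induced 2-fold at T2.5, T4 or T6 and fell from 7.68, 11.1 and 10.2 CPM to 0.517, 0.922 and 1.11 CPM (log2 fold change -3.51, SE 0.18, adjusted p = 9.58e-11). Cysltr1, a leukotriene receptor, rose by 1.67.

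In arginine metabolism Arg1 rose and Nos2 fell. Arg1, the gene of arginase 1, which turns arginine into ornithine and urea (chromosome 10, 24915207 to 24927470), showed the largest rise among the genes named by rule. It stood at 1.01, 1.61 and 1.35 CPM at T9, near its T0 mean of 0.904 ± 0.547 CPM, and at 30.9, 53.8 and 41.03 CPM at T13, a 31.5-fold rise (log2 fold change 4.98, SE 0.24, adjusted p = 5.46e-11), and it had not been raised at T2.5, T4 or T6. Nos2, the inducible nitric oxide synthase, which uses the same substrate, went from 3100.0, 3096 and 2977 CPM to 889, 737 and 768 CPM (log2 fold change -1.94, SE 0.36, adjusted p = 1.91e-04). Slc7a2, an arginine transporter gene, fell by 0.99, and Gch1, which makes a cofactor of nitric oxide synthase, by 0.99. Irg1, which makes itaconate, fell by 1.25. Ass1 and Asl, which rebuild arginine from citrulline, rose by 0.93 and 0.97. Other genes of alternative activation did not follow Arg1: of the 13 tested, 8 fell, among them Mrc1 (-2.20), Ccl17 (-2.23) and Irf4 (-1.90), and only Arg1 and Pdcd1lg2 rose.

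**Figure D4:**
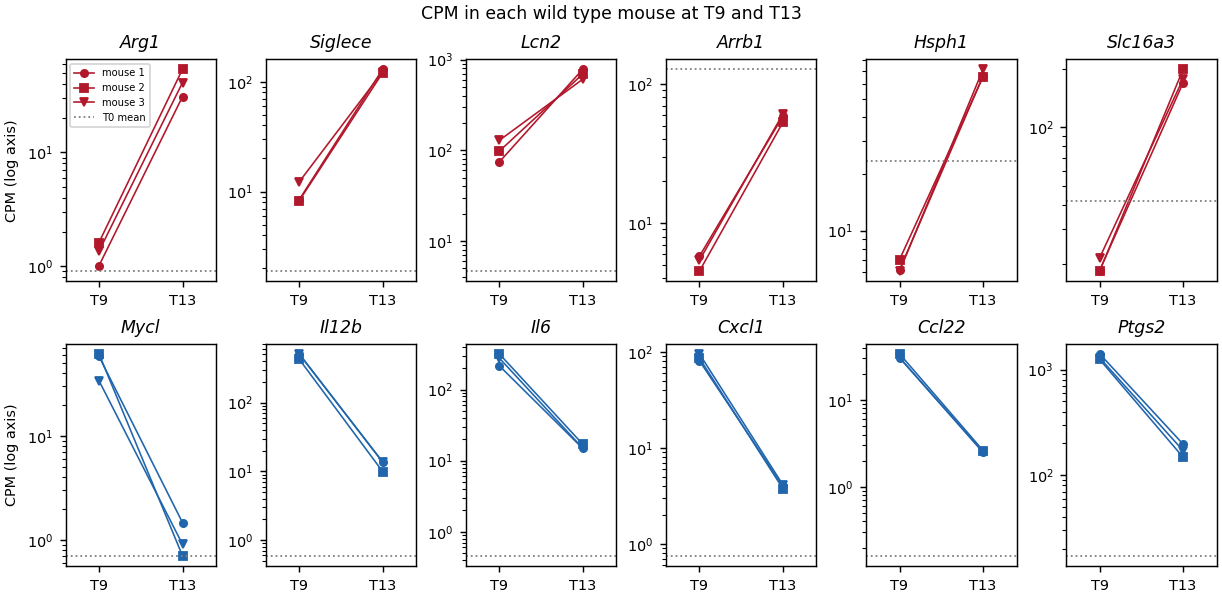
CPM on a log axis (y) at T9 and T13 (x) for 6 genes that rose (top) and 6 that fell (bottom) in each of the 3 wild-type mice; a line joins the libraries of a mouse and the dotted line is the T0 mean. No gene shown overlaps between the times, which the naming rule required of most of them. Arg1 goes from 1.01 to 1.61 CPM at T9 to 30.9 to 53.8 CPM at T13.

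Several myeloid surface and secreted products rose steeply. Siglece, an inhibitory receptor for sialic acids (chromosome 7, 43648882 to 43672044), went from 8.39, 8.21 and 12.2 CPM to 130.2, 121 and 124 CPM, 13.3-fold higher (log2 fold change 3.73, SE 0.19, adjusted p = 1.11e-10). Its mean at T9 was above T0, it gained most between T9 and T13, and the T13 mice lay close to each other. Lcn2, which encodes lipocalin 2, a protein that binds bacterial siderophores (chromosome 2, 32384637 to 32387739), went from 73.99, 97.5 and 128 CPM to 785, 695 and 609 CPM (log2 fold change 2.84, SE 0.21, adjusted p = 5.84e-09). Trem3, a receptor of the TREM family, went from 0.826, 1.58 and 1.08 CPM to 12.4, 12.1 and 11.5 CPM (log2 fold change 3.40, SE 0.26, adjusted p = 1.21e-08), and Gpr35, a G protein-coupled receptor gene, rose by 3.07. The acute-phase genes Hp and Saa3 rose by 1.95 and 1.78. The neutrophil marker list did not rise with them: 0 of 8 tested members were called higher in edgeR's test, 1 was lower, and its summed level was 74.4 to 80.0 CPM at T9 and 49.9 to 90.8 CPM at T13.

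Macrophage identity genes were called in both directions, 8 of 26 higher and 10 lower, against 29.5% and 30.1% of all tested genes. Itgam, the integrin chain CD11b, went from 659, 645 and 688 CPM to 1996, 1834 and 1926 CPM (log2 fold change 1.53, SE 0.11, adjusted p = 4.63e-09), and Siglec1, the sialoadhesin gene, rose by 1.69. Cx3cr1, the receptor of the Cx3cl1 chemokine, and Marco, a scavenger receptor, rose by 1.69 and 1.34. Clec7a, the beta-glucan receptor Dectin-1, went from 138, 147 and 183 CPM to 28.7, 34.9 and 35.3 CPM (log2 fold change -2.24, SE 0.12, adjusted p = 1.96e-10). Mertk, which takes up dying cells, fell by 1.26, and Trem2 by 1.32. Cd68 (-0.17) and Tyrobp (0.053) were not called.

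Glycolysis was the metabolic pathway with the largest share of rising genes among the lists described. Of 32 genes of glycolysis and HIF-1 targets, 22 rose and 6 fell, with a median of 0.79. Slc16a3, the lactate exporter MCT4 (chromosome 11, 120948484 to 120959000), went from 18.5, 18.3 and 21.4 CPM to 169.5, 199 and 177 CPM, 9.36-fold higher (log2 fold change 3.23, SE 0.14, adjusted p = 1.46e-11), and ended above its T0 mean of 42.00 ± 11.4 CPM. Pfkl, the liver-type phosphofructokinase, went from 18.8, 16.8 and 17.1 CPM to 126, 145 and 136 CPM (log2 fold change 2.94, SE 0.13, adjusted p = 3.12e-11). Tpi1, the triose phosphate isomerase, went from 58.4, 61.3 and 57.5 CPM to 219, 266 and 238 CPM (log2 fold change 2.02, SE 0.12, adjusted p = 4.45e-10). All 3 had lower means at T9 than at T0, and no T13 library overlapped a T9 library. Eno1, Gapdh, Pkm and Aldoa rose by 1.86, 1.11, 1.10 and 1.08. The HIF-1 targets Ankrd37, Egln3 and Bnip3 rose by 3.17, 2.85 and 2.51. Hif1a itself was at -0.063 and was not called, and the platelet-type phosphofructokinase Pfkp fell from 202, 196 and 192 CPM to 51.8, 55.7 and 51.5 CPM (log2 fold change -1.89, SE 0.078, adjusted p = 1.15e-11). Vegfa and Adm, which are also HIF-1 targets, fell by 0.89 and 1.75.

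Of 19 heat shock genes, 13 rose and 3 fell, with a median of 0.60. Hsph1, which encodes the chaperone HSP110 (chromosome 5, 149616843 to 149636498), went from 6.18, 7.01 and 6.09 CPM to 66.2, 65.5 and 71.8 CPM (log2 fold change 3.41, SE 0.10, adjusted p = 5.22e-13); it had been below its T0 mean of 23.4 ± 1.36 CPM from T2.5 on and ended above it. Hsp90ab1, a cytosolic HSP90, went from 432, 419 and 411 CPM to 955, 881 and 865 CPM (log2 fold change 1.10, SE 0.086, adjusted p = 1.53e-08), and Hspa8 rose by 1.62. Hspa1a rose by 2.38 and its near-identical copy Hspa1b by 1.66, and reads shared by the pair make each value uncertain. Hspa4l fell by 1.57. In the unfolded protein response list 11 of 25 rose, most by under 1 on the log2 scale, and 4 fell, among them Hspa5 (-0.52), the main chaperone of the endoplasmic reticulum. Without mouse 1, 6 rose and 1 fell, without mouse 3, 9 rose and 1 fell, and with library totals 17 rose and 1 fell. In the ATF4 and amino acid list 11 of 28 rose and 8 fell, against 29.5% and 30.1% of all tested genes. Without mouse 3, 6 rose. Ddit3 and Sesn2 rose by 1.49 and 1.16, while Slc7a11, the cystine importer, went from 627, 454 and 531 CPM to 92.8, 70.5 and 103 CPM (log2 fold change -2.59, SE 0.16, adjusted p = 9.72e-10).

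**Figure D5:**
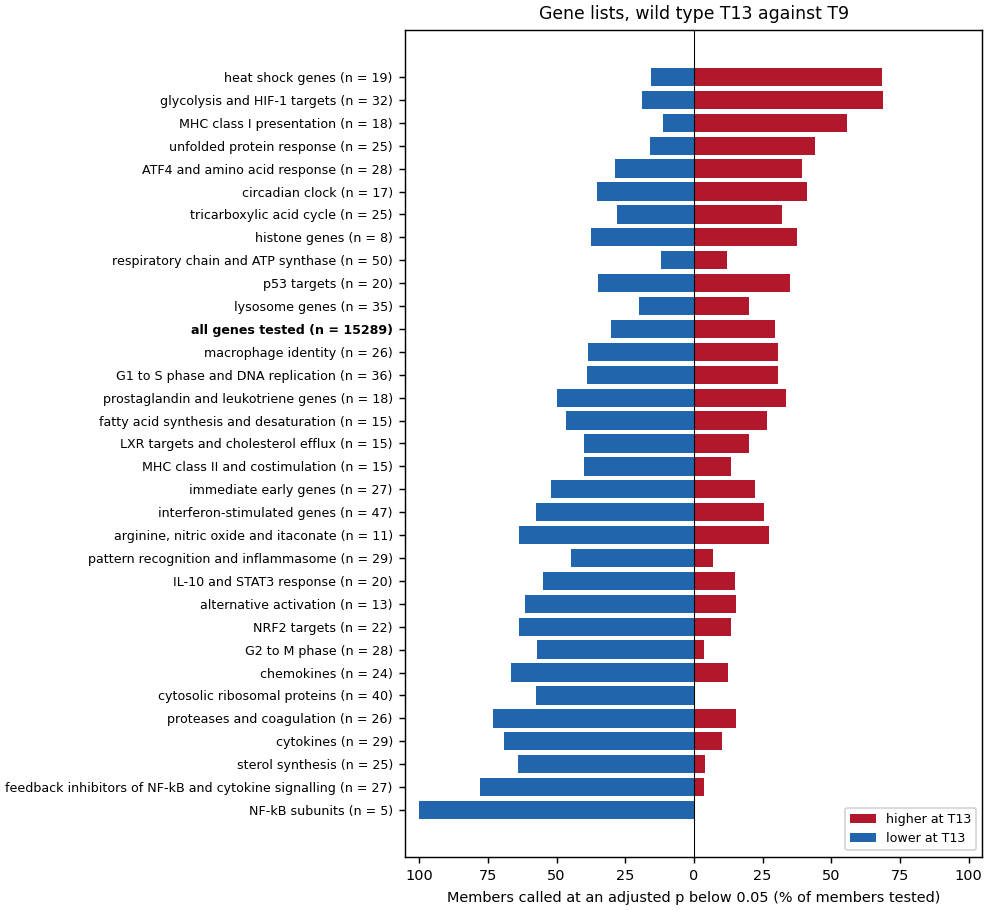
Share of tested members called higher (red, right) and lower (blue, left) at T13 against T9 for the 32 gene lists and all 15289 tested genes (bold), in % of members tested; n is the number tested. Heat shock and glycolysis lists have the largest red bars, and NF-kB subunits, feedback inhibitors, cytokines and sterol synthesis have mostly blue bars, while the bars of all genes are 29.5% and 30.1%.

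Most sterol synthesis and mitosis genes fell. Of 25 sterol synthesis genes 16 fell and 1 rose (0 without mouse 1 or 3), with a median of -1.14, and of 28 G2 to M phase genes 16 fell and 1 rose, with a median of -1.05. A promoter from each list is shown for its CCAAT box, the letters CCAAT on either strand, which bind the factor NF-Y. The stretches are the 250 bases before the RefSeq start in GRCm38.p6, on the minus strand of the chromosome, 5′ to 3′, with matches in capitals.
Cyp51: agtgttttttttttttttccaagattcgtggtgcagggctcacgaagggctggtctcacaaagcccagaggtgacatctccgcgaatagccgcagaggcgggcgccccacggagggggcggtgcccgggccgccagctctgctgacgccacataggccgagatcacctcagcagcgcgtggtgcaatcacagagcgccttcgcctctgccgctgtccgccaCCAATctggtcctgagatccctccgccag
Mki67: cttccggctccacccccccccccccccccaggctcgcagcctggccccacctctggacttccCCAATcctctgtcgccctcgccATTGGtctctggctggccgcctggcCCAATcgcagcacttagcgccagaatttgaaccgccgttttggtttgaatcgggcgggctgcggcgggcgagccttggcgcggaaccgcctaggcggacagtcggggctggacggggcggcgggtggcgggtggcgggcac
They lie at chr5:4104698-4104947 and chr7:135716380-135716629. The box was in 94.1% of the 17 sterol genes and 90.9% of the 22 G2 to M genes with a window, against 42.2% of tested genes, 44.2% of those called higher and 40.1% of those called lower.

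Cyp51, the sterol demethylase of the cholesterol pathway, went from 53.3, 61.99 and 59.8 CPM to 15.01, 14.1 and 15.5 CPM (log2 fold change -1.97, SE 0.091, adjusted p = 3.75e-11), well below its T0 mean of 37.3 ± 3.35 CPM. Hmgcs1, a synthase early in the pathway, fell by 1.49, Insig1 by 1.59 and the regulator Srebf2 by 0.91. On the side of cholesterol export, Nr1h3, which encodes the liver X receptor alpha (chromosome 2, 91184061 to 91202829), rose from 57.4, 35.7 and 37.2 CPM to 199.6, 194 and 197 CPM (log2 fold change 2.20, SE 0.15, adjusted p = 2.27e-09). The list of liver X receptor targets and cholesterol efflux, which holds Nr1h3 itself, did not rise as a group. Of its 15 genes 3 were higher, Nr1h3 among them, and 6 lower (3 without mouse 1 or with library totals, 2 without mouse 3). Abca1 was at 0.38 and not called, and Abcg1 rose by 0.24.

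Mki67, which marks cycling cells, went from 46.2, 40.1 and 44.1 CPM to 13.1, 9.84 and 12.6 CPM (log2 fold change -1.88, SE 0.11, adjusted p = 5.46e-10). Foxm1, a factor of the mitotic programme, went from 2.97, 4.77 and 3.72 CPM to 0.698, 1.41 and 0.939 CPM (log2 fold change -1.92, SE 0.17, adjusted p = 4.72e-08). Cenpf and Ube2c fell by 2.99 and 2.67, whereas Cdk1 (0.017) and Aurkb (0.0055) were not called. G1 to S phase genes were called in both directions, 11 of 36 higher (7 without the mouse as a block) and 14 lower. The shares over all tested genes were 29.5% and 30.1%. Among cyclin D genes, Ccnd2 went from 274, 297 and 259.9 CPM to 89.98, 85.1 and 86.8 CPM (log2 fold change -1.67, SE 0.13, adjusted p = 1.40e-08) and Ccnd3 from 9.89, 14.5 and 12.7 CPM to 52.8, 48.3 and 42.8 CPM (log2 fold change 1.99, SE 0.18, adjusted p = 7.95e-08). E2f1, an S phase factor, rose by 1.86, and the replication helicase subunits Mcm2 (1.17) and Mcm6 (-1.21) were called in opposite directions.

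The steepest fall among the genes named by rule was that of Mycl, which encodes the MYC family factor L-MYC (chromosome 4, 122995588 to 123002490). It had risen from a T0 mean of 0.709 ± 0.219 CPM to 80.3 CPM at T6, stood at 58.2, 61.4 and 33.99 CPM at T9 and returned to 1.47, 0.707 and 0.912 CPM, 48.1-fold lower (log2 fold change -5.59, SE 0.27, adjusted p = 4.84e-11). At T13 it did not differ from T0 in the test (log2 fold change 0.59, adjusted p = 0.141). Plagl1, a zinc finger factor, fell by 5.11, and Il17rd, an inhibitor of growth factor signalling, by 4.77. Gprc5c, Macc1, Snn, Prrg4, Asap3, Ppm1l and Schip1 completed the 15 steepest with Cxcl1, Il6, Il12b, Ccl22 and Slc9a9, and fell by 3.68 to 4.41. Schip1 overlaps another gene model, so its reads cannot be told apart from those of its neighbour. Slc9a9, an endosomal sodium-proton exchanger, had not been induced 2-fold at T2.5, T4 or T6 and went from 49.99, 52.4 and 58.2 CPM to 3.90, 3.84 and 3.67 CPM (log2 fold change -3.81, SE 0.092, adjusted p = 1.04e-13).

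Rebounding genes included receptors, small GTPase regulators and signalling adaptors. Arrb1, which encodes beta-arrestin 1 (chromosome 7, 99535147 to 99606772), had dropped from a T0 mean of 128 ± 11.7 CPM, stood at 5.75, 4.50 and 5.38 CPM at T9 and rose to 58.7, 53.1 and 60.9 CPM (log2 fold change 3.47, SE 0.10, adjusted p = 5.29e-13), which was still below T0. Cnr2, the cannabinoid receptor of immune cells (chromosome 4, 135895189 to 135920219), went from 0.857, 0.653 and 0.430 CPM to 7.18, 8.67 and 8.01 CPM against 31.2 ± 2.12 CPM at T0 (log2 fold change 3.62, SE 0.25, adjusted p = 2.75e-09). Nfatc2, a calcium-regulated transcription factor, went from 4.53, 2.85 and 3.07 CPM to 34.8, 31.9 and 33.2 CPM (log2 fold change 3.25, SE 0.15, adjusted p = 4.61e-11) and passed its T0 mean of 26.4 ± 3.37 CPM. Arhgap27, a GTPase-activating protein, went from 19.99, 12.2 and 15.9 CPM to 219, 194 and 186 CPM (log2 fold change 3.65, SE 0.13, adjusted p = 2.93e-12), above its T0 mean of 66.3 ± 5.48 CPM, and Arhgap4 rose by 3.37. Rab3il1, an exchange factor gene for Rab proteins, rose by 3.33 and remained below T0. Gdpd5, Traf3ip3, Narf and Pla2g5 rose by 3.34 to 3.77. Every T13 library was above every T9 library in these genes, but the rule that named them required this.

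Among further losses, Sort1, a sorting receptor, went from 34.2, 29.1 and 25.2 CPM to 7.31, 6.21 and 6.05 CPM (log2 fold change -2.17, SE 0.12, adjusted p = 1.58e-10) after 119 ± 31.3 CPM at T0. Atp6v0d2, a subunit of the vacuolar proton pump, went from 39.1, 37.4 and 34.1 CPM to 9.20, 8.58 and 8.21 CPM (log2 fold change -2.09, SE 0.10, adjusted p = 4.11e-11), while Ank and Pianp fell by 2.15 and 2.24. Gdf15, a stress-induced cytokine, fell by 2.44, and mouse 1 was the highest at T9. The lysosome list as a whole had 7 of 35 genes higher, 7 lower and 21 not called (11 lower without mouse 2, and 14 higher and 5 lower with library totals).

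Targets of the antioxidant factor NRF2 fell for the most part: 14 of 22 targets fell and 3 rose, with a median of -0.73. Txnrd1, a thioredoxin reductase, went from 1379.5, 979 and 1152 CPM to 348, 317 and 325 CPM (log2 fold change -1.81, SE 0.082, adjusted p = 2.87e-11), and Srxn1, a sulfiredoxin, from 788, 516 and 631 CPM to 252, 258 and 249 CPM (log2 fold change -1.34, SE 0.11, adjusted p = 3.10e-08). Nfe2l2, the gene of NRF2, fell by 1.06, whereas Hmox1, the haem oxygenase, rose by 1.29. In both Txnrd1 and Srxn1 mouse 1 was the highest at T9. Reads of ribosomal protein genes made up only 0.207% to 0.239% of counts at T9 and 0.175% to 0.198% at T13. Only uniquely aligning reads were counted and near-identical copies can lose reads, so the values of these genes are uncertain. In the reads counted, cytosolic ribosomal protein genes were lower as a group, 23 of 40 and 0 higher in edgeR's test, with a median of -0.54. The lowest value was that of Rpl5 (-1.25) and the highest that of Rps9 (-0.15, not called), so 40 of 40 were below 0; 9 were called lower without mouse 3 and 14 with library totals. Rpl4 went from 162, 185 and 170.0 CPM to 92.8, 96.98 and 87.4 CPM (log2 fold change -0.90, SE 0.093, adjusted p = 4.12e-07).

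Genes called lower were longer, given here as a description without a test. Of 13398 protein-coding genes tested, those called lower had a median genomic span of 30664 bases, those called higher 19953 bases and all genes 23312 bases. From the shortest to the longest of 5 equal bins of 13089 genes with a span, the share called lower went from 23.6% to 41.4% and the share called higher from 33.3% to 23.9%. The declining induced genes had the longest median span of the 5 classes, 34152 bases, and the still climbing genes the shortest, 18199 bases.

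The Cop1-floxed cells, 6 further libraries, show whether the same genes moved in other mice. There 4533 of 15685 genes tested were higher at T13 (28.9%) and 4785 lower (30.5%). Of the wild-type declines, 1969 of 2157 were also called lower there and 1 was called higher, and of the rebounds 1622 of 1818 were also called higher and 0 lower. Of the newly rising genes 367 of 430, of the still climbing genes 284 of 405 and of the further losses 216 of 345 were called in the same direction. The step itself differed between genotypes in few genes: 40 (0.255%) had a higher wild-type step and 9 (0.0574%) a lower one.

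Ccl22 fell further in wild type, from a higher T9 level. Scaled over all 36 libraries, it was at 29.5, 32.5 and 29.7 CPM at T9 and 2.44, 2.53 and 2.41 CPM at T13 in wild type, against 12.9, 12.04 and 11.4 and 2.66, 2.04 and 2.59 CPM in Cop1-floxed cells (difference -1.31, SE 0.22, adjusted p = 0.00955). The genotypes were apart at T9 and overlapped at T13. Csf3, the gene of a granulocyte growth factor, went from 8.10, 9.14 and 10.8 CPM to 16.00, 15.5 and 12.99 CPM in wild type and from 48.9, 27.96 and 32.3 CPM to 26.2, 24.1 and 21.9 CPM in Cop1-floxed cells (difference 1.24, SE 0.25, adjusted p = 0.0265). These calls are fragile: without mouse 1 of each genotype 0 genes were called in edgeR's test, and without mouse 2 or 3 between 1 and 5 had a higher and between 0 and 4 a lower wild-type step.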

How the data were processed

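Polyadenylated RNA of macrophages from 6 mice, 3 of each genotype, was sequenced at 6 times, giving 36 libraries in 12 groups of n = 3. The deposited table of counts holds, per the file headers, uniquely aligning reads per Entrez gene model, without normalisation. The deposited RPKM values were, per the file headers, adjusted by size factors. The deposited size of each gene model is, per the file headers, an other kind of value, used for symbols and lengths. The submitters' processing notes name GSNAP and GRCm38 but no version, annotation or strand setting. Reads of overlapping or antisense genes therefore cannot be told apart, and near-identical copies can lose reads. The symbol Rfwd2 stands for Cop1.

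Tests ran in edgeR 4.0.16 under R 4.3.3. The 18 wild-type libraries were fitted with 1 mean per group and the mouse as a block, after filterByExpr (15289 of 36528 genes) and TMM scaling, and T13 minus T9 was tested by glmQLFTest with Benjamini-Hochberg adjustment at 0.05. Each SE was derived from the F statistic and the log2 fold change. T2.5, T4 and T6 against T0 came from the same fit. The difference between genotypes used all 36 libraries (15685 genes). The tests were also run on simulated data in which 200 genes were changed, with rises and falls in balance. In the data 59.6% of tested genes were called, so that simulation cannot show how the scaling behaves in so broad a step.

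The labels give the individual, so libraries of T9 and T13 with the same number come from the same mouse. Their deviations from the group means correlated at 0.37, 0.29 and 0.098, against -0.33 to 0.074 for different mice. Replicates differed beyond sampling noise, with a chi-square per degree of freedom of at least 9.52 in the 6 pairs.

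Members, the 32 gene lists and the 9 marker lists were chosen with earlier results of these data known. Lists are described by counts and medians. Named by rule were the 15 largest rises and falls among called genes whose higher group averaged 5 CPM or more and whose libraries did not overlap, the 5 largest of each class, the best 4 (or fewer) of every list, ranked on adjusted p, 16 set genes and, for the genotype difference, the 5 largest in each direction under the same conditions. Pseudogenes and unnamed models were skipped, and some genes that meet the rule are not reported here. Other list members serve as examples picked with their values in view. Positions and promoters are from RefSeq for GRCm38.p6, counted from 1; 14438 of 15289 gene IDs matched, and 11237 (73.5%) had a promoter window used here, from 250 bases before to 50 after the start.

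Alternatives were no replicate block, all 36 or only the 6 libraries, size factors of DESeq2, library totals, no filter, a mean of at least 5 CPM, DESeq2 1.42.0, limma-trend (limma 3.58.1) on log2(RPKM + 1) or log2(RPKM + 0.1) above a mean RPKM of 0.1, and leaving out each mouse.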

Additional observations from a re-analysis of the deposited data

Results flagged for a closer look

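In 10 genes the step from T9 to T13 differed between wild-type and Cop1-floxed cells by a test of the difference itself (edgeR, all 36 libraries, mouse as a block). They are the 5 largest in each direction under the rule for named genes. Values are the wild-type minus the Cop1-floxed log2 step.

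The wild-type step was lower for Cdc42ep3, which encodes an effector of the small GTPase CDC42 (difference -1.38, SE 0.28, adjusted p = 0.0292). It fell by 1.29 in wild type and had a log2 fold change of 0.087 in Cop1-floxed cells. For Ccl22, whose libraries are given above, the value was -1.31, with falls of 3.64 and 2.32. Iars, an isoleucyl-tRNA synthetase, rose in both, by 0.56 and 1.37 (difference -0.81, SE 0.18, adjusted p = 0.0459). Ticam2, an adaptor of TLR4, had steps of -0.27 and 0.32 (difference -0.60, SE 0.13, adjusted p = 0.0459). Cpe, carboxypeptidase E, fell by 1.23 and 0.65 (difference -0.58, SE 0.13, adjusted p = 0.0459). In Cdc42ep3 and Cpe wild-type mouse 1 was the lowest at both times, as it was in the stromal marker sum. With library totals that sum was 409 to 982 CPM in wild type and 134 to 175 CPM in Cop1-floxed cells at T9. At T13 it was 223 to 581 and 75.1 to 107 CPM. The part of stromal cells in these differences was not tested.

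The wild-type step was higher for Csf3, at 1.24, with steps of 0.66 and -0.58. Sema4c, a semaphorin gene, had steps of 0.79 and -0.34 (difference 1.13, SE 0.20, adjusted p = 0.0117). Bend7 fell by 2.25 and 3.36 (difference 1.10, SE 0.21, adjusted p = 0.0176). Irf2bpl had steps of 1.04 and 0.11 (difference 0.93, SE 0.16, adjusted p = 0.0105), and Dok2, an adaptor of tyrosine kinase signalling, rose by 2.83 and 1.95 (difference 0.88, SE 0.17, adjusted p = 0.0256). Each of the 10 was called in 3 to 7 of the 9 or 10 alternatives that gave it a value, and 0 changed sign. Without the Cop1-floxed T9 library of replicate 2, which detected 15045 genes and so the fewest of all libraries, 17 genes had a higher wild-type step.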

How the results depend on the processing

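Over 13 alternatives, 0 of the genes called in the step were called in the opposite direction. A change of sign that ended without a call was not counted there. Of 2319 values of the 180 named genes 2309 kept direction and side of the threshold. Between 3142 and 5874 genes were higher and between 3168 and 4821 lower. Leaving out a mouse in turn gave 3523 to 4450 higher and 3489 to 4491 lower. Without the replicate block, 4111 were higher and 4038 lower, of which 4109 and 4035 were also called with it; under the pairing by mouse Ebf1 and Col3a1 were called, and without the block they were not (adjusted p = 0.0728 and 0.0577). On log2(RPKM + 1) Kit was not called (adjusted p = 0.0639). Apoe, Zbtb46, Kit and Il1b were not called without replicate 3 (adjusted p = 0.0536, 0.0793, 0.133 and 0.134) and H2afx without replicate 1 (0.0888). With library totals Cebpb changed sign to 0.025 and Cop1 was called at 0.24.

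Without the block 4 of 10 stromal markers, in place of 9, were called lower. Library totals gave 4199 rebounds, 267 newly rising genes, 1179 declines and 853 further losses. At a mean of at least 5 CPM, where 9314 genes were tested, 817 rose and 987 fell 2-fold, with 230 still climbing, 208 newly rising and 188 further losses. On log2(RPKM + 1), which understates the change of low genes, 562 rose and 849 fell 2-fold, with 245 still climbing, 755 rebounds and 89 further losses, and log2(RPKM + 0.1) gave 225 further losses.

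The difference between genotypes, 40 higher and 9 lower, depended most on the setting. It came to 5 and 0 with no replicate block in edgeR, 13 higher with size factors of DESeq2, 1 higher with library totals, 20 lower with no filter, 12 higher at a mean of at least 5 CPM, 71 and 42 in DESeq2 and 17 higher and 7 lower without Cop1-floxed T9 replicate 2. Leaving out each mouse gave 0 to 5 higher and 0 to 4 lower. The cause was not tested. The 3 mice per group limit the precision, and a gene that was not called is not shown to be unchanged.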

Other observations

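Clock and p53 genes were called in both directions, as were genes in general. The counts below stand beside 29.5% higher and 30.1% lower over all tested genes. Of 17 circadian clock genes tested, 7 rose and 6 fell. Per1, a core repressor of the clock, went from 10.7, 10.5 and 9.34 CPM to 30.3, 26.97 and 26.3 CPM (log2 fold change 1.45, SE 0.14, adjusted p = 1.56e-07), and Tef rose by 1.23, while Bhlhe41 fell from 51.3, 27.4 and 31.4 CPM to 8.58, 8.27 and 8.79 CPM (log2 fold change -2.05, SE 0.14, adjusted p = 3.18e-09). Of 20 p53 targets, 7 rose and 7 fell. Sesn1, a sestrin that restrains mTORC1, went from 2.57, 2.06 and 2.34 CPM to 18.9, 16.8 and 21.7 CPM against 82.7 ± 5.53 CPM at T0 (log2 fold change 3.04, SE 0.18, adjusted p = 4.06e-10). Fas and Mdm2, which had risen earlier in the LPS course, fell by 1.76 and 1.27. Of 50 respiratory chain and ATP synthase genes, 6 rose (10 without mouse 2, 4 without mouse 1), 6 fell (3 without mouse 1, 9 without mouse 2, 4 without mouse 3) and 38 were not called; with library totals 23 rose and 3 fell. Of 25 tricarboxylic acid cycle genes, 8 rose and 7 fell (14 and 5 with library totals), led by Aco1 (0.75) and Mdh1 (-0.64) in adjusted p. Fatty acid genes had 4 of 15 higher and 7 lower (2 and 3 without mouse 3, 5 and 4 without mouse 2, 6 and 4 with library totals): Fads1, a desaturase, rose by 0.89, and Fasn, the fatty acid synthase, fell by 0.93. Of 8 histone genes 3 rose (1 without mouse 1), among them H1f0 (1.69), and 3 fell, among them H3f3b (-0.94). In the IL-10 and STAT3 list 11 of 20 fell (7 without mouse 3) and 3 rose (5 without mouse 3 or with library totals), with Stat3 at -1.11 and Pim1 at -1.41.

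Proteases and coagulation genes fell in 19 of 26 cases and rose in 4 (2 without mouse 1 or 3). Plaur, the urokinase receptor, went from 258, 276 and 248 CPM to 70.3, 72.01 and 58.9 CPM (log2 fold change -1.96, SE 0.13, adjusted p = 1.29e-09). Adam8, a membrane protease, rose from 984, 998 and 846 CPM to 1913, 2059.9 and 1846 CPM (log2 fold change 1.04, SE 0.075, adjusted p = 5.84e-09). Timp3, a protease inhibitor that is also on the stromal marker list, went from 88.8, 257 and 200.4 CPM to 15.2, 36.6 and 33.5 CPM (log2 fold change -2.65, SE 0.094, adjusted p = 2.93e-12), with mouse 1 lowest at both times. Fn1, the fibronectin gene, also had mouse 1 lowest at both times and fell by 1.66. The stromal markers Acta2, Postn and Col3a1 fell by 1.60, 1.37 and 0.94; their part in these results was not tested. Among the other marker lists, 3 of 8 macrophage markers rose and 3 fell (5 without mouse 2), 1 of 4 endothelial markers rose (Pecam1, 1.13) and 1 fell (Kdr, -1.47), 2 of 4 B cell markers and 1 of 3 mast cell and basophil markers (0 without mouse 3) fell, and of erythroid and platelet (2 tested) and T and NK markers (1 tested) 0 were called in edgeR's test.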
